A study of Rattus norvegicus with 35 samples.

Results

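The endoplasmic reticulum stress genes described here are 9 genes named by symbol: Hspa5, Hsp90b1, Dnajb9, Sdf2l1, Herpud1, Xbp1, Atf4, Ddit3 and Trib3. All 9 of the 9 were measured in rat liver by a probe set that carries a single gene symbol, among 13439 genes so measured. Each group mean of each of the 9 lay above the brightest nonspecific probe of that group, so no member's level is only a bound. The study asked how livers with biliary cirrhosis respond to blood loss and whether simvastatin alters that response.

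RNA of 35 rat livers was measured on 1-colour Affymetrix arrays, 1 array per liver sample, in 6 groups. Control rats went through a sham procedure (control sham, n = 5) or through hemorrhage followed by resuscitation, written H/R (control H/R, n = 6). The other 4 groups had secondary biliary cirrhosis from ligation of the common bile duct, were given vitamin K each week, and were examined at 4 weeks. Without the drug these were 5 rats with the sham procedure, called ligated sham, and 6 rats with H/R, called ligated H/R. With simvastatin, an inhibitor of HMG-CoA reductase, they were 5 rats with the sham procedure, called simvastatin sham, and 8 rats with H/R, called simvastatin H/R. The dose was 5 mg/kg by gavage each day over the last 3 days, with 1 h between the final dose and the experiment. Strain, sex, age and the vehicle of the untreated ligated rats were not given in the labels used here. Nor do the labels describe individual animals, so p-values rest on the spread among samples, which may be partly technical.

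The endoplasmic reticulum (ER) of the hepatocyte folds the plasma proteins that the liver secretes, and a load of unfolded protein starts the unfolded protein response. Its 3 sensors are IRE1, which splices Xbp1 mRNA into the form that encodes an active factor, ATF6, which is cut in the Golgi to release a factor, and PERK, which phosphorylates eIF2 and so favours translation of Atf4. XBP1 and ATF6 raise chaperone and degradation genes, whereas ATF4 raises Ddit3 (which encodes CHOP) and Trib3, a step shared with amino acid shortage as the integrated stress response. Expression arrays measure mRNA and see neither Xbp1 splicing, nor ATF6 cleavage, nor eIF2 phosphorylation.

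The elements through which these factors act can be read in the promoters, and windows that hold one are shown with the matched letters in capitals. RefSeq windows of the build GRCr8, 300 bases long from 250 before to 50 after each gene's start, were available for all 9 members, and the 250 bases before the start are printed, 5′ to 3′ on the gene's strand. They lie at chr3:38452766-38453015 on the plus strand for Hspa5, chr7:23012294-23012543 on the minus strand for Hsp90b1, chr14:84604373-84604622 on the plus strand for Xbp1, chr19:10614708-10614957 on the minus strand for Herpud1 and chr3:161275534-161275783 on the minus strand for Trib3.
Hspa5: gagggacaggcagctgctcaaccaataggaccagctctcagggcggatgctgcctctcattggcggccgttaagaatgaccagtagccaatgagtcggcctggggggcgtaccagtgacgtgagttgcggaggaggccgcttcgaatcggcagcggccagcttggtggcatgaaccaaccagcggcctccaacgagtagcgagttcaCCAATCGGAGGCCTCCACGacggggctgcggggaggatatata
Hsp90b1: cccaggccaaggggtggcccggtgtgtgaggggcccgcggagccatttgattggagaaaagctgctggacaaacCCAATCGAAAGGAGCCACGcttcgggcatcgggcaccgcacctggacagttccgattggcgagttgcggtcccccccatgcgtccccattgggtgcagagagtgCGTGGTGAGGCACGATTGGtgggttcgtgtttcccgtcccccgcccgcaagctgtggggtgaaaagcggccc
Xbp1: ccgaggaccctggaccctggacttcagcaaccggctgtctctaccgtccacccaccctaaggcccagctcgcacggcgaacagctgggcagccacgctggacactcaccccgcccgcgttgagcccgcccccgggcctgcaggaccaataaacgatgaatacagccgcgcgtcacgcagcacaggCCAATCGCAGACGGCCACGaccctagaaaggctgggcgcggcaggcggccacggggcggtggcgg
Herpud1: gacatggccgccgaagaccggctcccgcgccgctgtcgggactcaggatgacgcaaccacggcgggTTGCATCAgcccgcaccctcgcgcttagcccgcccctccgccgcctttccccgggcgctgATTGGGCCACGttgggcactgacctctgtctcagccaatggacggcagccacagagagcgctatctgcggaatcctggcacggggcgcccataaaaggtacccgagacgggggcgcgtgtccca
Trib3: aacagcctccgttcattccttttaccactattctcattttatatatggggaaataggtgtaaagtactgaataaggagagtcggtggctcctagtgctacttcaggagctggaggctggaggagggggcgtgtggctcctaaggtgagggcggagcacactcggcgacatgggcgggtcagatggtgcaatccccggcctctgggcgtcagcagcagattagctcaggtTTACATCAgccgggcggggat

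Both strands were searched for 4 motifs, and no matches overlapped in the members' windows. The ER stress response element ERSE, which is CCAAT and CCACG with 9 bases of any kind between them, is read by ATF6 and XBP1 together with NF-Y. It was found in Hspa5, 24 bases before the start, in Xbp1, 46 bases before, and in Hsp90b1 at both 157 and, on the reverse strand, 53 bases before. Only 22 of 33469 rat windows of this length (0.0657%) hold that motif, against 3 of 9 members. The 9 were named as ER stress genes, so this contrast describes them and is not a test. The related ERSE-II, which is ATTGG and CCACG with 1 base of any kind between them, was found in Herpud1, 113 bases before the start, and in 17 of the 33469 windows (0.0508%). The core of the ATF4 element CARE, TGATGNAA, was found on the reverse strand in Trib3 (13 bases before) and Herpud1 (176 bases before), and 1332 windows (3.98%) hold it. The core of the XBP1 element UPRE, TGACGTGG, was in 0 of the 9 members and in 199 windows (0.595%). The windows of Dnajb9, Sdf2l1, Atf4 and Ddit3 held no match, which says only that these letters are not in these windows.

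The deposited values are normalized log2 signals, on which a difference of 1 is a doubling. Array medians ran from 3.97 to 4.29, the highest correlation between arrays was 0.992, and no 2 arrays were identical. The lowest correlation of an array with the rest of its group was 0.972, in simvastatin sham replicate 1. On the hybridization controls, the gap between BioD and BioB ran from 3.11 to 3.29 on control arrays and from 3.43 to 3.93 on arrays of ligated rats, with no overlap. Its part in the comparisons of ligated with control livers was not tested. Hepatocyte markers were bright in every group, with 9 of 9 measured markers above nonspecific probes, so the tissue matched its label.

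**Figure D1:**
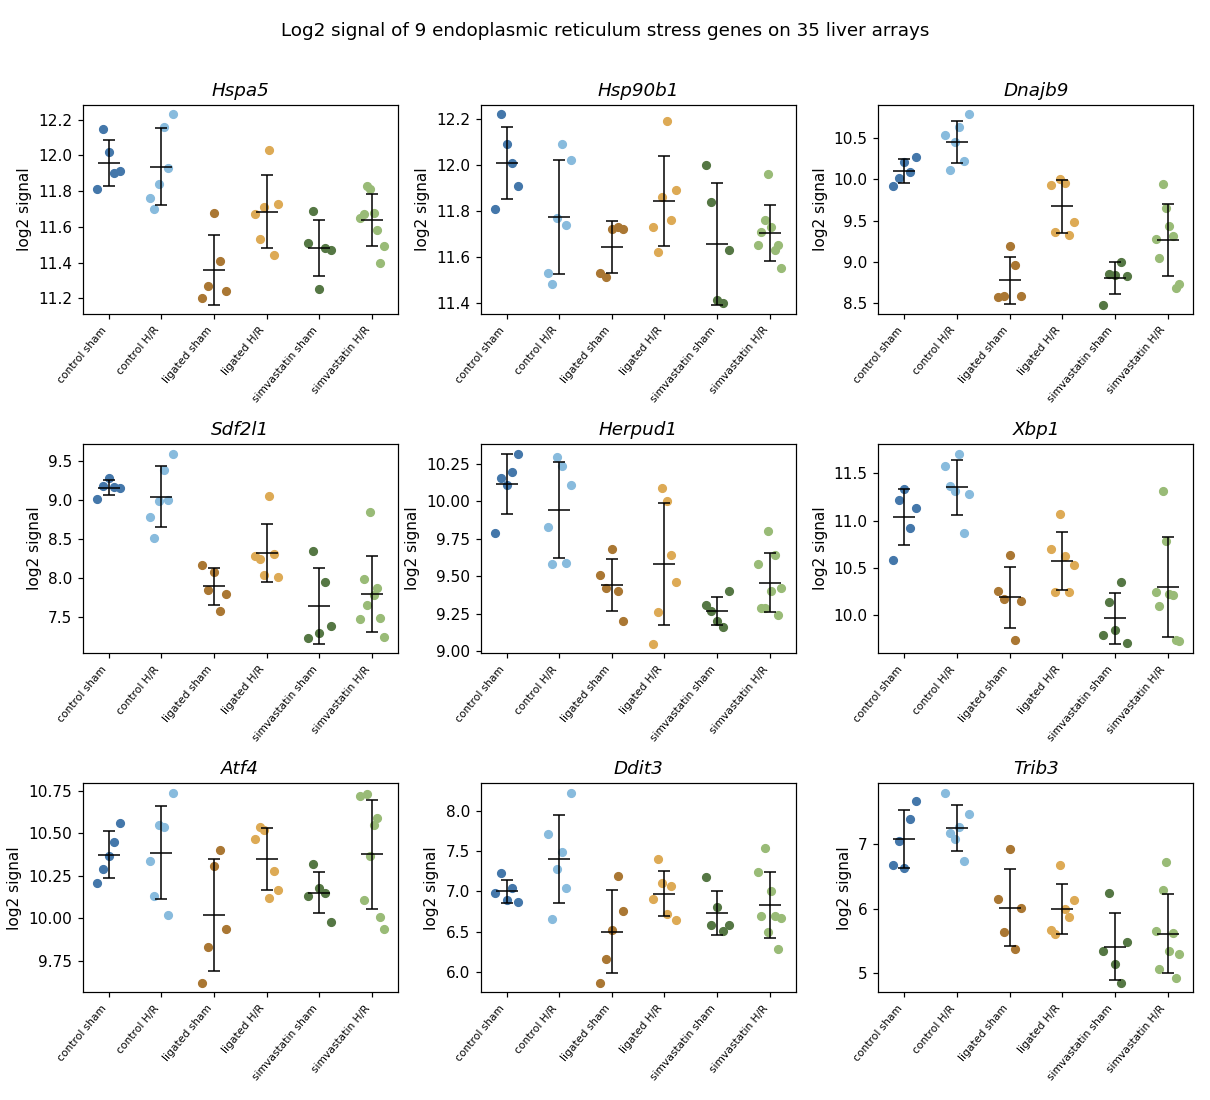
Log2 signal (vertical axes, each on its own scale) of the 9 genes on 35 arrays in 6 groups. Points are arrays, horizontal bars group means and error bars SDs. Dnajb9 lies at 9.92 or above on all control arrays and at 9.19 or below on all ligated sham arrays.

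Comparing ligated sham with control sham livers describes the cirrhotic liver without blood loss. All control arrays share an ending of the title number that no untreated ligated array has. The meaning of the ending is unstated, and ending and ligation cannot be told apart. Here 7 of the 9 genes fell with an adjusted p under 0.05 and 0 rose, by 1.29-fold to 2.51-fold, beside 22.4% of all 13439 genes that passed downward in the same comparison. The median of the 9 log2 differences was -0.68, against -0.04 for all genes. With each array centred on its hepatocyte markers, a setting chosen after these markers were seen to fall, 3 of the 9 passed downward and Hsp90b1 turned to 0.07, beside 6.15% of all genes lower and 45.6% higher on that scale. The largest falls were those of Dnajb9 and Sdf2l1, which assist the chaperone BiP, and of Trib3. Atf4 and Ddit3 lay lower without passing. Tests are limma fits over all 35 arrays with Benjamini-Hochberg adjustment over all genes, and errors of differences are standard errors. In whole liver, fewer cells of a type and less RNA per cell cannot be told apart.

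Among the chaperones, Hspa5 encodes BiP, the main Hsp70 of the ER, which also holds the 3 sensors inactive. Its log2 signals were 11.81, 12.15, 12.02, 11.90 and 11.91 in control sham livers and 11.20, 11.27, 11.68, 11.41 and 11.24 in ligated sham livers. Every ligated sham value was below every control sham value. The fall was 1.51-fold (log2 difference -0.60 ± 0.12, adjusted p = 9.7e-05 with limma).

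Hsp90b1 encodes GRP94, the Hsp90 of the ER, which folds integrins and Toll-like receptors. Its signals were 11.81, 12.22, 12.09, 12.01 and 11.91 in control sham and 11.53, 11.51, 11.72, 11.73 and 11.72 in ligated sham livers, again without overlap. The fall of 1.29-fold (log2 -0.36 ± 0.13, adjusted p = 0.017 with limma) was the smallest of the 7. It did not pass without control sham replicate 2 (log2 -0.31, adjusted p = 0.053).

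Dnajb9 encodes ERdj4, a J-domain partner of BiP that promotes degradation of misfolded proteins and returns BiP to IRE1. Its log2 signals were 9.92, 10.02, 10.21, 10.09 and 10.27 in control sham livers and 8.57, 8.58, 9.19, 8.96 and 8.58 in ligated sham livers. The lowest control value stood well above the highest ligated value. The fall was 2.51-fold (log2 -1.33 ± 0.19, adjusted p = 6.5e-07 with limma), the largest among the 9. Sdf2l1, a partner of J-domain chaperones that limits aggregation of their clients, had signals of 9.01, 9.18, 9.28, 9.17 and 9.16 in control sham and 8.17, 7.85, 8.08, 7.58 and 7.79 in ligated sham livers. Those ranges did not overlap either, and the fall was 2.41-fold (log2 -1.27 ± 0.24, adjusted p = 4.1e-05 with limma).

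Herpud1 encodes a membrane protein that organises the ubiquitin ligase complex of ER-associated degradation. Its signals were 9.79, 10.16, 10.11, 10.20 and 10.32 in control sham and 9.51, 9.42, 9.68, 9.40 and 9.20 in ligated sham livers, without overlap. It fell 1.60-fold (log2 -0.68 ± 0.16, adjusted p = 0.00091 with limma). Xbp1, the factor downstream of IRE1, had signals of 10.59, 11.22, 11.33, 10.92 and 11.13 in control sham and 10.26, 10.17, 10.64, 9.74 and 10.15 in ligated sham livers. The highest ligated value lay just above the lowest control value, and the fall was 1.80-fold (log2 -0.85 ± 0.22, adjusted p = 0.0022 with limma). Plasma cells are rich in Xbp1, and the mean of 7 measured B cell and plasma cell markers was 3.46 to 3.61 on control sham and 3.46 to 3.78 on ligated sham arrays, with 5 of the 7 not above nonspecific probes in the ligated group. Of the 7, Jchain, the joining chain of secreted antibodies, rose (log2 1.91 ± 0.42, adjusted p = 0.00038 with limma), from 4.49, not above nonspecific probes, to 6.40. The part of plasma cells in the Xbp1 difference was not tested.

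On the PERK side, Atf4 is regulated mainly at translation, and its mRNA had signals of 10.21, 10.29, 10.37, 10.45 and 10.56 in control sham and 9.62, 9.83, 10.31, 10.40 and 9.94 in ligated sham livers. The groups overlapped, and the difference did not pass (log2 -0.36 ± 0.16, adjusted p = 0.060 with limma). Ddit3 encodes CHOP, a factor that can drive cell death under lasting stress. Its signals spanned 6.87 to 7.23 in control sham livers and a wider 5.86 to 7.19 in ligated sham livers, and it did not pass (log2 -0.51 ± 0.24, adjusted p = 0.080 with limma). Both passed downward when each array was centred on its own median, with log2 -0.55 for Atf4 (adjusted p = 0.0049) and -0.69 for Ddit3 (adjusted p = 0.015). Centred on hepatocyte markers they stood at 0.07 and -0.07 (adjusted p = 0.76 and 0.83), and quantile normalization again gave -0.25 for Atf4 (adjusted p = 0.19) and -0.61 for Ddit3 (adjusted p = 0.036).

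Trib3, a pseudokinase that CHOP and ATF4 induce and that binds the kinase AKT, had signals of 6.67, 7.05, 6.62, 7.39 and 7.66 in control sham and 6.14, 5.63, 6.92, 5.37 and 6.01 in ligated sham livers. Only ligated sham replicate 3 reached the control range, and the fall was 2.09-fold (log2 -1.06 ± 0.30, adjusted p = 0.0040 with limma). Trib3 alone among the 9 had further single-symbol probe sets. The probe set used is of a type that may match several transcripts, as is 1 of the others. Both others also fell, by log2 -1.11 ± 0.35 (adjusted p = 0.011 over 19069 probe sets) and -1.07 ± 0.33 (adjusted p = 0.0080).

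Cell type markers moved with ligation, beside 25.3% of all genes called higher and 22.4% called lower. Cholangiocyte markers averaged 4.67 to 5.56 on control sham arrays and 8.37 to 9.44 on ligated sham arrays, and 9 of 10 rose. All 10 stellate cell and myofibroblast markers rose, as did 5 of 9 macrophage markers while 1 fell, and 2 of 8 endothelial markers rose while 2 fell. Of 7 neutrophil markers 0 passed, and of 7 B cell and plasma cell markers 1 rose. The mean of the 9 hepatocyte markers was 12.38 to 12.44 on control sham and 11.79 to 12.19 on ligated sham arrays, and 4 of the 9 fell. Centring used this mean, at 12.4 and 11.96 in the 2 groups, while the median difference of the 9 markers was -0.25. With arrays centred on these hepatocyte markers the median of all genes moved from -0.04 to 0.39. The members that passed downward on that scale were Dnajb9 (log2 -0.89, adjusted p = 0.00037), Sdf2l1 (-0.83, adjusted p = 0.0094) and Trib3 (-0.63, adjusted p = 0.049). Hspa5 (-0.17), Herpud1 (-0.24), Xbp1 (-0.41), Hsp90b1 (0.07), Atf4 (0.07) and Ddit3 (-0.07) did not pass on it. Centring on array medians moved the median of all genes to -0.23 and the split of all calls from 3394 higher and 3008 lower to 2594 and 5128, and all 9 members then passed downward.

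**Figure D2:**
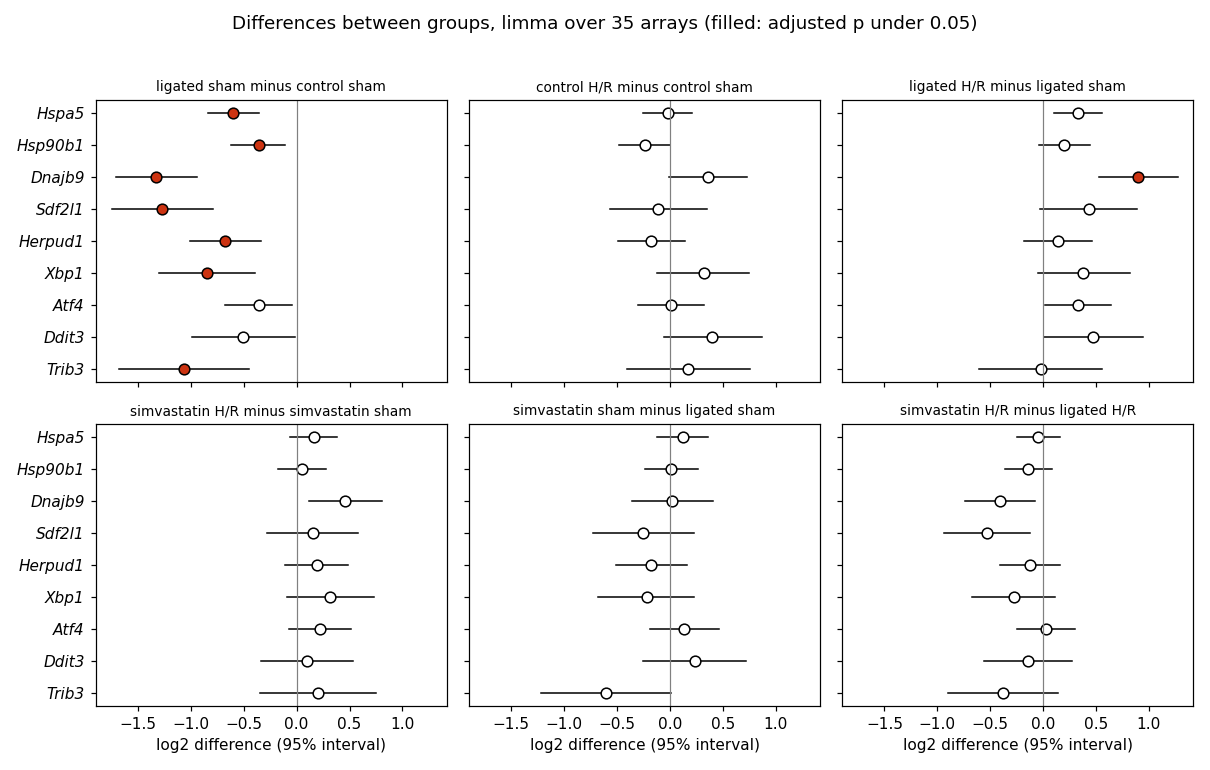
Log2 differences with 95% intervals (horizontal axes) for the 9 genes in 6 comparisons, from a limma fit over 35 arrays. Filled points have an adjusted p under 0.05. The filled points are 7 falls with ligation and the rise of Dnajb9 after H/R in ligated livers.

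The genes around these 9 were read from 5 lists of the ER and its stress pathways, which hold 98 measured genes beside the members. With ligation 53 of the 98 fell, 11 rose and 34 did not pass, with a median log2 difference of -0.40 against -0.04 for all genes. Of all genes, 22.4% passed downward and 25.3% upward. Centred on array medians 67 fell and 6 rose, beside 38.2% of all genes lower and 19.3% higher. Centred on hepatocyte markers 19 fell and 20 rose, beside 6.15% lower and 45.6% higher. The median on that scale was 0.04 against 0.39 for all genes. The genes named next kept their sign under every scaling, and on the hepatocyte scale Ubxn4, Edem3 and Atf6 did not pass. Of 20 other chaperones and folding enzymes, 11 fell and 0 rose (median -0.35). Hyou1, an exchange factor of BiP, fell 3.70-fold (log2 -1.89 ± 0.25, adjusted p = 1.8e-07 with limma), and Creld2, an ER stress-induced disulfide isomerase, fell 3.46-fold (log2 -1.79 ± 0.28). Manf, a BiP-binding secreted protein, fell 2.10-fold and Dnajb11, which encodes the BiP partner ERdj3, fell 2.33-fold.

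Of 13 other genes of ER-associated degradation, 7 fell and 2 rose (median -0.39). Syvn1 and Sel1l, which form the HRD1 ligase complex that Herpud1 serves, fell 2.80-fold (log2 -1.49 ± 0.19, adjusted p = 1.5e-07 with limma) and 2.57-fold (log2 -1.36 ± 0.22). Ubxn4, which recruits the ATPase VCP, fell 1.61-fold and Edem3, a mannosidase that marks clients for disposal, 1.69-fold. Among 8 other sensors and factors, 5 fell and 1 rose (median -0.48). Atf6 fell 1.48-fold (log2 -0.57 ± 0.14, adjusted p = 0.0016 with limma), and Creb3l3, a liver factor that is cut like ATF6, fell 2.10-fold. Mbtps1, the protease that cuts ATF6, rose 1.61-fold (log2 0.69 ± 0.11), and Creb3l2 was not above nonspecific probes in either group.

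Of 26 other factors and targets of the integrated stress response, 13 fell and 4 rose (median -0.60). Aldh1l2, a mitochondrial folate enzyme, fell 5.10-fold (log2 -2.35 ± 0.29, adjusted p = 3.4e-08 with limma), Asns, asparagine synthetase, 2.60-fold and Slc3a2, a subunit of amino acid transporters, 2.05-fold. Vldlr, a lipoprotein receptor, rose 3.30-fold (log2 1.72 ± 0.26). Of 31 genes of protein translocation and ER exit, 17 fell and 4 rose (median -0.31). Sec23b, a COPII coat subunit, fell 2.42-fold, Lman1, a cargo receptor, 2.04-fold, and Surf4, another cargo receptor, 1.96-fold. Kdelr3, a receptor that returns chaperones to the ER, was not above nonspecific probes in control sham livers and rose at least 7.63-fold (adjusted p = 2.1e-11 with limma), as the ratio of its ligated mean to the control group's nonspecific level.

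The ERSE was found in 5 of 81 other listed genes that have a promoter window, and ERSE-II in 2. Their log2 differences with ligation were -1.79 for Creld2, -0.93 for Dnajc3, -0.53 for Calr, -0.06 for Ero1b and -0.03 for Canx, and with ERSE-II -1.89 for Hyou1 and -1.22 for Dnajb11. These other genes with an ERSE thus ran from -0.03 to -1.79. Among members, the 2 largest falls, of Dnajb9 and Sdf2l1, were in genes without a match in these windows, and Hsp90b1 with 2 ERSE copies had the smallest called fall. The part of these motifs in the differences was not tested.

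**Figure D3:**
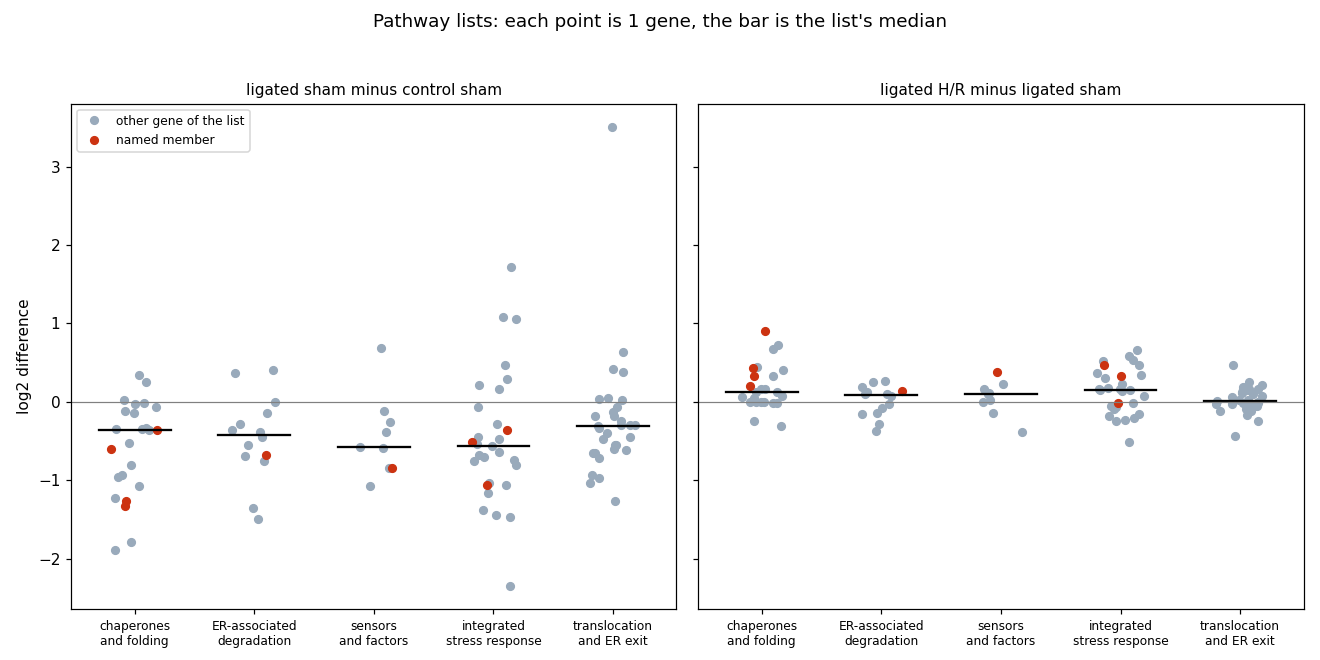
Log2 difference (vertical axis) of each gene of the 5 lists for ligated sham minus control sham (left) and ligated H/R minus ligated sham (right). Members are in the second colour and bars are medians of the whole list, members included. After ligation the bars lie between -0.57 and -0.31, and after H/R between 0.01 and 0.15.

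H/R in control livers tests the response of a healthy liver. By limma 0 of the 9 genes passed, beside 0.856% of all genes called in either direction. An unadjusted p under 0.05 was found for 0 of the 9 and for 1635 of all 13439 genes. The 9 log2 differences lay between -0.24 and 0.40 with a median of 0.01, against -0.01 for all genes. Dnajb9 had the lowest, median and highest signals 10.11, 10.49 and 10.79 after H/R against 9.92, 10.09 and 10.27 after sham, and the groups overlapped. Its difference was 0.36 ± 0.18, with a 95% interval from -0.01 to 0.73 (adjusted p = 0.43 with limma). Ddit3 spread from 6.66 to 8.23 after H/R and differed by 0.40 ± 0.23 (adjusted p = 0.50 with limma), while Hsp90b1 differed by -0.24 ± 0.12 (adjusted p = 0.42). For Hspa5 the 95% interval ran from -0.25 to 0.21 around -0.02, so a rise beyond 0.21 on the log2 scale lay outside it. Of the 98 other listed genes, Asns alone passed and fell 1.93-fold (log2 -0.95 ± 0.21, adjusted p = 0.023 with limma).

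H/R in ligated livers tests the same injury in cirrhosis. Dnajb9 rose 1.86-fold and was the only one of the 9 genes past the threshold, beside 0.119% of all genes called higher (16 of 13439). Of the 9 log2 differences 8 were positive, with a median of 0.33 against -0.02 for all genes. The 9 vary together within groups, so their signs are not separate observations in this or any comparison. The ligated sham arrays also serve in the ligation comparison, so its falls and these differences are not independent. An unadjusted p under 0.05 was found for 4 of the 9 and for 1401 of all 13439 genes. Dnajb9 signals in ligated sham livers were 8.57, 8.58, 9.19, 8.96 and 8.58, and after H/R the lowest, median and highest were 9.32, 9.70 and 10.00. All ligated H/R values were above all ligated sham values, and the highest lay inside the control sham range of 9.92 to 10.27. The log2 difference was 0.90 ± 0.18 (95% interval 0.53 to 1.27, adjusted p = 0.023 with limma), 11th among 13439 genes by p.

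The call depended on single arrays and on the fit. It was lost without any 1 of ligated sham replicates 1, 2, 4 and 5 or ligated H/R replicates 1, 3 and 4 (log2 0.83 to 0.94, adjusted p = 0.050 to 0.12), and in a fit of these groups alone (adjusted p = 0.15). The titles carry numbers whose last 2 digits recur, with unstated meaning, and with these as a block the difference was 0.66 (adjusted p = 0.22). Within an ending, Dnajb9 was 9.19 in 1 sham and 9.72 in 2 H/R arrays (0.53), and in another ending 8.58 in 3 sham and 9.36 in 1 H/R array (0.78). With the block the median of the 9 differences was 0.25, with Xbp1 at 0, Herpud1 at -0.04 and Trib3 at -0.57.

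Hspa5 ranged from 11.20 to 11.68 in ligated sham livers and from 11.44 to 12.03 after H/R, with a difference of 0.33 ± 0.11 that did not pass (adjusted p = 0.29 with limma). Atf4 ranged from 9.62 to 10.40 and from 10.12 to 10.54, a difference of 0.33 ± 0.15 (adjusted p = 0.45). Ddit3 differed by 0.47 ± 0.23 (adjusted p = 0.47). These 3 had an unadjusted p under 0.05 and overlapping groups. Sdf2l1 differed by 0.43 ± 0.23, Xbp1 by 0.38 ± 0.21, Hsp90b1 by 0.20 ± 0.12, Herpud1 by 0.14 ± 0.16 and Trib3 by -0.02 ± 0.29, all with adjusted p from 0.51 to 0.99. In Sdf2l1, ligated H/R replicate 4 stood at 9.05 while the other 5 lay between 8.02 and 8.31. By limma 0 of the 98 other listed genes passed, with a median of 0.07.

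Neutrophil markers had a mean of 5.01 to 5.30 on ligated sham and 5.15 to 7.48 on ligated H/R arrays, with a median gene difference of 1.23 and 0 of 7 past the threshold. Ncf1, Cxcr2 and Mmp8 were not above nonspecific probes in either group, and the part of these cells in the Dnajb9 difference was not tested. Hepatocyte markers averaged 11.79 to 12.19 and 11.44 to 12.13, and with arrays centred on them the Dnajb9 difference was 1.00 (adjusted p = 0.018 with limma).

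Whether H/R acted differently in ligated and control livers was tested as the difference of the 2 H/R effects, which share no arrays. By limma 0 of the 9 genes passed, beside 0.00744% of all genes (1 of 13439). Unadjusted p was under 0.05 for Hsp90b1 (0.44 ± 0.17, adjusted p = 0.77), Hspa5 (0.35 ± 0.16, adjusted p = 0.89) and Dnajb9 (0.54 ± 0.26, adjusted p = 0.91). It was under 0.05 for 734 of all 13439 genes. The 95% interval for Dnajb9 ran from 0.02 to 1.06. The median over the 9 was 0.32, against -0.01 for all genes. The rise of Dnajb9 in ligated livers was thus not shown to differ from its difference in control livers.

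After H/R in both, ligated livers still had lower levels than control livers for 5 of the 9 genes, beside 22.3% of all genes called lower, and 0 were higher. Dnajb9 ran from 9.32 to 10.00 in ligated H/R and from 10.11 to 10.79 in control H/R livers, without overlap, and was 1.72-fold lower (log2 -0.79 ± 0.17, adjusted p = 0.00034 with limma). Trib3 ran from 5.61 to 6.67 and from 6.74 to 7.79, also without overlap, and was 2.40-fold lower (log2 -1.26 ± 0.27, adjusted p = 0.00031). Xbp1 was 1.72-fold lower (log2 -0.78 ± 0.20, adjusted p = 0.0020) and Sdf2l1 1.65-fold lower (log2 -0.72 ± 0.22, adjusted p = 0.0061), with overlapping ranges.

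Herpud1 was 1.28-fold lower (log2 -0.36 ± 0.15, adjusted p = 0.046 with limma), a call lost without any 1 of 7 of the 12 arrays, which were control H/R replicates 3, 4 and 6 and ligated H/R replicates 1, 2, 5 and 6 (log2 -0.37 to -0.25, adjusted p = 0.057 to 0.16). Hspa5 (-0.25 ± 0.11, adjusted p = 0.059), Ddit3 (-0.43 ± 0.22, adjusted p = 0.10), Atf4 (-0.04 ± 0.14) and Hsp90b1 (0.07 ± 0.11) did not pass. Markers again moved with ligation, with 9 of 10 cholangiocyte, 9 of 10 stellate cell, 6 of 9 macrophage, 3 of 8 endothelial, 1 of 7 neutrophil and 1 of 7 B cell and plasma cell markers (Jchain) higher and 5 of 9 hepatocyte markers lower. Of all genes, 24.7% were called higher and 22.3% lower. The mean of the hepatocyte markers was 12.38 in control H/R and 11.86 in ligated H/R livers, while their median difference was -0.26. Centred on hepatocyte markers, where the median of all genes moved from -0.03 to 0.49, Trib3 alone passed downward (-0.74, adjusted p = 0.0099), Hsp90b1 (0.59) and Atf4 (0.48) passed upward, and Herpud1 turned to 0.16, beside 60.2% of all genes higher and 4.93% lower. Centred on array medians, all genes split into 2611 higher and 4795 lower in place of 3314 and 2996.

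Of the 98 other listed genes, 45 were lower and 12 higher in this comparison, with a median of -0.31, beside 22.3% of all genes lower and 24.7% higher. On the hepatocyte scale 6 were lower and 38 higher, beside 4.93% of all genes lower and 60.2% higher. The median on that scale was 0.21 against 0.49 for all genes. Sil1, an exchange factor of BiP, was 2.04-fold lower (log2 -1.03 ± 0.15, adjusted p = 1.2e-06 with limma), and Sel1l 2.52-fold, Syvn1 2.07-fold and Hyou1 1.90-fold lower, of which Hyou1 did not pass on the hepatocyte scale (log2 -0.41, adjusted p = 0.078). Eif2ak3, which encodes PERK, was 1.41-fold lower (log2 -0.49 ± 0.14) and Rtcb, the ligase that joins spliced Xbp1 mRNA, 1.29-fold lower, and both turned on the hepatocyte scale (0.03 and 0.15). Ddit4, a stress-induced inhibitor of mTORC1, was 2.85-fold higher (log2 1.51 ± 0.27), Vldlr 4.37-fold higher and Kdelr3 at least 5.01-fold higher.

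Simvastatin was compared with no drug in ligated rats. In sham rats 0 of the 9 genes passed by limma, beside 0.781% of all genes called in either direction. An unadjusted p under 0.05 was found for 0 of the 9 and for 1453 of all 13439 genes. Dnajb9 signals were 8.48, 8.85, 8.84, 9.0 and 8.83 with simvastatin, within or just below those without it, and the difference was 0.02 ± 0.19 (95% interval -0.36 to 0.41). Trib3 signals were 5.35, 6.24, 5.14, 4.85 and 5.48 with simvastatin, against 5.37 to 6.92 without. Its difference of -0.60 ± 0.30 did not pass (95% interval -1.22 to 0.01, adjusted p = 0.47 with limma), and its other probe sets gave -0.14 and -0.41. The other 7 differences lay between -0.25 for Sdf2l1 and 0.24 for Ddit3.

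After H/R, 0 of the 9 genes passed between simvastatin and untreated ligated livers, beside 1.35% of all genes called by limma. Of all 13439 genes 1932 had an unadjusted p under 0.05, and so had 2 of the 9. These were Dnajb9, at 8.68 to 9.95 with simvastatin against 9.32 to 10.00 without (-0.41 ± 0.16, adjusted p = 0.22), and Sdf2l1, at 7.24 to 8.85 against 8.02 to 9.05 (-0.53 ± 0.20, adjusted p = 0.20). The ranges overlapped for both. With arrays weighted by their quality Dnajb9 passed (-0.48, adjusted p = 0.046 with limma), but over the 8 alternative fits its adjusted p reached 0.88. With title endings as a block 0 of the 9 passed, and the median of the 9 differences was 0 in place of -0.14. Within the title ending shared by 2 arrays of each group, the means of Dnajb9 were 9.47 with simvastatin and 9.96 without (-0.50), and those of Sdf2l1 were 8.16 and 8.16, a difference of 0. The other 7 differences lay between -0.38 for Trib3, whose other probe sets gave 0 and -0.18, and 0.03 for Atf4.

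Between simvastatin H/R and simvastatin sham livers, all 9 differences were positive and 0 passed, beside 0% of all genes, with a median of 0.19 against -0.01 for all genes. The sign of 2 of them turned in other settings. Centred on hepatocyte markers Hsp90b1 was -0.09 and Ddit3 -0.04, with a median of 0.06 over the 9 against -0.15 for all genes. Hsp90b1 was -0.01 without simvastatin sham replicate 3 or 4, and Ddit3 was -0.01 without simvastatin H/R replicate 3. By limma 1 of the 9 genes, Dnajb9, had an unadjusted p under 0.05, beside 725 of all 13439 genes. Its difference was 0.46 ± 0.17 (adjusted p = 0.85 with limma), and its H/R signals were 8.68 at the lowest, 9.30 at the median and 9.95 at the highest. Within the title endings that both groups share, its difference was 0.80 over 2 and 2 arrays and 0.30 over 3 sham and 6 H/R arrays, where Hsp90b1 gave -0.12 and 0.19. The other differences ran from 0.05 for Hsp90b1 to 0.32 for Xbp1. In Xbp1 the highest of the 8 signals was 11.31, within the control range, and the next was 10.79.

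The H/R effects with and without simvastatin were compared directly, and by limma 0 of the 9 genes passed, beside 0.00744% of all genes. An unadjusted p under 0.05 was found for 0 of the 9 and for 654 of all 13439 genes. For Dnajb9 the difference of effects was -0.44 ± 0.25 (95% interval -0.94 to 0.07, adjusted p = 0.99), an interval that holds both 0 and a value as large as the whole untreated difference of 0.90. Other values ran from -0.38 for Ddit3 to 0.22 for Trib3. Of the 98 other listed genes, 0 passed in any of the simvastatin comparisons. These comparisons share the ligated or simvastatin groups, so their values are not independent of each other.

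Ordered by group mean, both control groups stood highest for all genes except Hsp90b1, where ligated H/R (11.84) came between control sham (12.01) and control H/R (11.77). Control H/R led the order for Dnajb9 (10.46), Xbp1 (11.35), Ddit3 (7.41), Trib3 (7.25) and Atf4 (10.39), and control sham for Hspa5 (11.96), Sdf2l1 (9.16) and Herpud1 (10.12). The lowest group was ligated sham for Hspa5, Hsp90b1, Dnajb9, Atf4 and Ddit3, and simvastatin sham for Sdf2l1, Herpud1, Xbp1 and Trib3. Atf4 had nearly level means of 10.39, 10.38, 10.38 and 10.35 in its 4 highest groups. Of the 45 pairs of neighbouring groups in these orders, 45 overlapped in range.

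How the 9 genes vary together within groups was measured by Pearson correlations of log2 signals less their group means over the 35 arrays, which also share each array's processing and RNA. Of 36 pairs 35 were positive, the median r was 0.41, and 14 had an adjusted p under 0.05 in a permutation test of arrays within groups, adjusted over the 36. Hspa5 and Hsp90b1 had r = 0.79 and Spearman's rho = 0.81 (adjusted permutation p = 0.00018 and 0.00036), and r = 0.78 without the 2 arrays farthest from the median of Hspa5. Dnajb9 and its regulator Xbp1 had r = 0.77 and rho = 0.67 (adjusted permutation p = 0.00024 and 0.0013), and r = 0.67 without the 2 farthest. Atf4 and its target Ddit3 had r = 0.70 and rho = 0.67 (adjusted permutation p = 0.0013 and 0.0027), and r = 0.69 without the 2 farthest. High values were not limited to regulators and their targets. Dnajb9 and Atf4 had r = 0.69 and rho = 0.66 (adjusted permutation p = 0.0014 and 0.0031), and r = 0.62 without the 2 farthest.

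Some pairs of 1 pathway did not vary together. Ddit3 and Trib3, both targets of ATF4, had r = 0.11 and rho = 0.14 (adjusted permutation p = 0.60 and 0.49), and r = -0.01 without the 2 arrays farthest from the median of Ddit3. Sdf2l1 and Ddit3 had r = -0.10 and rho = -0.16 (adjusted permutation p = 0.61 and 0.45). Trib3 had its highest r with Xbp1, 0.65, with rho = 0.56 (adjusted permutation p = 0.0014 and 0.0066), and r = 0.60 without the 2 farthest.

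**Figure D4:**
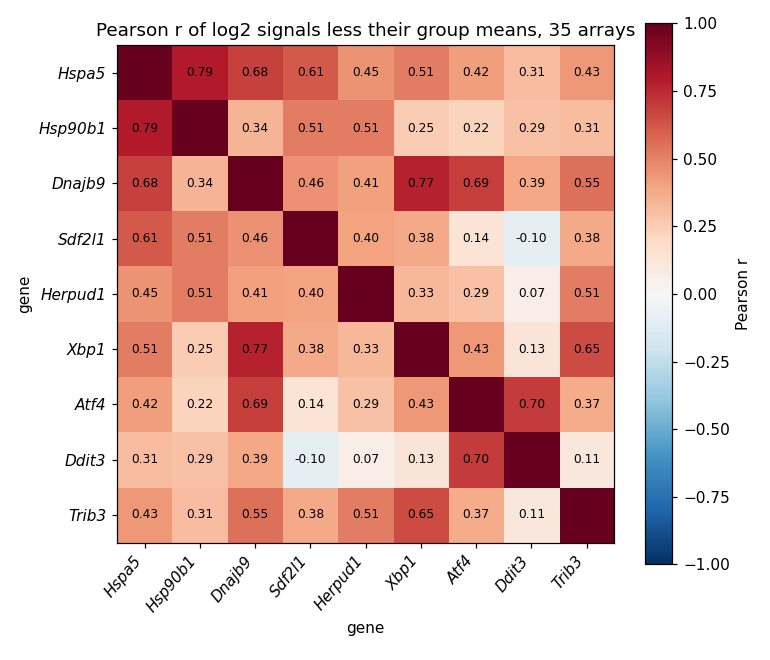
Pearson r between the 9 genes over 35 arrays, after subtracting each gene's group mean. The colour scale runs from -1 to 1. Hspa5 with Hsp90b1 (0.79), Dnajb9 with Xbp1 (0.77) and Atf4 with Ddit3 (0.70) are the highest pairs.

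Among 9366 other genes above the 30th percentile of mean signal, those most like Hspa5 within groups were Creld2 (r = 0.86), Tubb6 (0.83), Syvn1 (0.83), Manf (0.82) and Hyou1 (0.80), over 35 arrays. Creld2, Syvn1, Manf and Hyou1 are on the ER lists, and Tubb6 is a tubulin. Those most like Trib3 were Ttpal (0.79), Tnfrsf1a (0.77), Vtn (0.76), Kdelr2 (0.76) and Tmem185b (0.75), of which Kdelr2 is on the ER lists. These were picked as the highest of all candidates and are given without a test.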

How the data were processed

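The authors deposited normalized log2 signals, 1 per probe set and array, a scale inferred from their range of 1.51 to 13.79. How they were normalized is not stated in any source used here. Of 31139 probe sets, 19069 carried 1 symbol in the platform annotation, 572 several and 11498 none. Tests used the single-symbol probe set with the highest mean of each of 13439 genes. Group means over 35 arrays were fitted with limma 3.58.1 in R 4.3.3 (lmFit, contrasts.fit, eBayes), with Benjamini-Hochberg adjustment within a comparison. On simulated data for the ligation comparison, with 50 changed genes per size among 13439, the fit recovered 16%, 72%, 96% and 94% at log2 0.4, 0.9, 1.3 and 2. In the measured data 6402 of the 13439 genes were called with ligation, and recovery with so many changed genes was not tested. The 9 genes and the 5 ER and 7 cell type lists were chosen with earlier results of these data known. Beside the 9, up to 4 called genes per list of smallest p were named, and the 5 genes most like Hspa5 and Trib3. A gene was not above background where its group mean did not pass that of the brightest nonspecific probe, and its fold is then a bound. Arrays have no read depth, and precision rests on 5 to 8 arrays per group. Alternatives were a fit of the compared groups only, trend and robust options, array weights, a filter at the 30th percentile, quantile normalization again, median centring, the mean of all probe sets, title endings as a block and each array left out. Control arrays share an ending that no untreated ligated array has, so ending and ligation cannot be told apart, and no ending is common to ligated sham and simvastatin sham. Permutations numbered 100000, and 1e-05 is the smallest p they can give.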

Additional observations from a re-analysis of the deposited data

Results flagged for a closer look

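Single arrays far from the rest of their group were sought in 54 sets of values (9 genes in 6 groups of 5 to 8 arrays) with Dixon's 95% critical values, which chance passes in about 1 of 20 groups, and 2 were found. Both were in Sdf2l1. Ligated H/R replicate 4 had the highest log2 signal of its group at 9.05, with a gap to the next array of 0.72 of the group's range. Simvastatin H/R replicate 4 had the highest of its group at 8.85, with a gap of 0.53 of the range.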

How the results depend on the processing

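No paired analysis was possible because replicate numbers here only name samples and the labels give no pairing. With ligation, 7 members passed, 6 to 9 with an array left out, 9 with array weights or median centring, and 3 with arrays centred on hepatocyte markers, where Hsp90b1 reversed to 0.07 and all genes split into 6125 higher and 826 lower in place of 3394 and 3008. In ligated H/R against ligated sham, 1 passed, 0 to 1 with an array left out, and 0 in a fit of these groups only and with title endings as a block. Between simvastatin and untreated ligated livers after H/R, 0 passed, and 1 with array weights. In ligated against control H/R livers, 5 passed, 4 to 7 with an array left out, and 3 with hepatocyte centring, where Herpud1 reversed to 0.16 and all genes split into 8084 and 663 in place of 3314 and 2996. The other 5 comparisons had 0 in every setting run. The cause of these changes was not tested. Counts over all genes moved too: for H/R in control livers from 115 to 11 in a fit of its groups only and 50 to 190 with an array left out (lowest without control H/R replicate 4, highest without control H/R replicate 3); for H/R in ligated livers from 18 to 3 with its groups only, 4 with the block, 43 with array weights and 2 to 45 with an array left out; for simvastatin in sham livers from 105 to 22 and 397; and for simvastatin after H/R from 182 to 13 with the block and 744 with weights.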
